A study of Mus musculus with 2 samples.

Results

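The 6 genes described here are S100a8, S100a9, Lcn2, Saa3, Hp and Reg3g, taken by name from the 35208 genes of a single-cell cDNA matrix of inflamed mouse ear skin. The skin lesion was IgE-mediated chronic allergic inflammation (IgE-CAI), elicited in BALB/c mice by giving anti-TNP IgE and then injecting the allergen TNP-OVA into the ear. Wild-type (WT) and Ccr2-/- mice were compared on days 3 and 5 after challenge. The Ccr2-/- allele removes the chemokine receptor CCR2 in every cell of the animal, and every mouse in both genotypes received the same IgE and allergen. Cells of the 4 conditions were labelled with 4 hashtag antibodies, mixed, and run together, so that each genotype and day was 1 pool with no repeat; the number of mice in a pool is not given in the sources used here.

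Calprotectin is the heterodimer of S100A8 and S100A9, a zinc- and calcium-binding complex that makes up a large part of neutrophil cytosol and is used as a marker of inflammation. Lipocalin 2 (Lcn2) binds bacterial siderophores and so withholds iron, haptoglobin (Hp) binds free haemoglobin, and serum amyloid A3 (Saa3) is a local acute-phase apolipoprotein made outside the liver. Reg3g encodes a C-type lectin of the regenerating islet-derived family that kills Gram-positive bacteria, best known from the gut epithelium. In skin these genes are known from neutrophils and stressed keratinocytes, and the acute-phase members are also known from stromal cells exposed to IL-1, IL-6 or IL-17.

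S100a8 and S100a9 lie close together on chromosome 3 (GRCm38), S100a8 from 90668978 to 90670035 on the plus strand and S100a9 from 90692632 to 90695721 on the minus strand. Lcn2 lies on chromosome 2 from 32384633 to 32388252, Saa3 on chromosome 7 from 46711998 to 46715700, Hp on chromosome 8 from 109575128 to 109579172 and Reg3g on chromosome 6 from 78466269 to 78468872, all on the minus strand. The promoter windows of 5 members are printed from RefSeq (GRCm38.p6). Each is read 5′ to 3′ on the strand of its gene, with the RefSeq start site at base 251. The gene positions above come from another annotation (GENCODE), so a RefSeq start site can differ from the gene end given there, as for Lcn2 and S100a8. The windows are S100a8 at chr3:90668821-90669120 (plus), S100a9 at chr3:90695672-90695971 (minus), Lcn2 at chr2:32387690-32387989 (minus), Saa3 at chr7:46715627-46715926 (minus) and Reg3g at chr6:78468825-78469124 (minus). Capitals mark matches to the motifs searched on both strands.
S100a8: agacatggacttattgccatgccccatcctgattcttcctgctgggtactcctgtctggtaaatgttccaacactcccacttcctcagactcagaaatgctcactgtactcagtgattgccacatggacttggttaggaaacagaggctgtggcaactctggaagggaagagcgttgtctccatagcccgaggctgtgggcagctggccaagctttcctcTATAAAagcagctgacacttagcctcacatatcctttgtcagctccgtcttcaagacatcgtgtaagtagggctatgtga
S100a9: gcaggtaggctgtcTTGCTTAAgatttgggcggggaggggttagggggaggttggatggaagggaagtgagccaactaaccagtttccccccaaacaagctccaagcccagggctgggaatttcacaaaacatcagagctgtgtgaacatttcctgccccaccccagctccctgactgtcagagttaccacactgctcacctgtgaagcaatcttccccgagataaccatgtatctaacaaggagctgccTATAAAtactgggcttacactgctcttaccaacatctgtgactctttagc
Lcn2: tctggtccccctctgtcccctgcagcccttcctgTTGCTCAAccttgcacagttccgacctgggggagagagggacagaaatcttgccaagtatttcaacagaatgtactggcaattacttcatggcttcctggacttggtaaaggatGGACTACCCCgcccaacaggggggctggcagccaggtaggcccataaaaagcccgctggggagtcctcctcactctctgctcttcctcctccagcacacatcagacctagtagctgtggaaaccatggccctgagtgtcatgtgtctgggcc
Saa3: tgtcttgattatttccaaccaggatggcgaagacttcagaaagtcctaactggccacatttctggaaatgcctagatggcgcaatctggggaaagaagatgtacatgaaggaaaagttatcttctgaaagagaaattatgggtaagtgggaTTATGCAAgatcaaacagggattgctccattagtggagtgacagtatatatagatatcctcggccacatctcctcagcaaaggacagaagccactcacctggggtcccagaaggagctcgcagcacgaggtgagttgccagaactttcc
Reg3g: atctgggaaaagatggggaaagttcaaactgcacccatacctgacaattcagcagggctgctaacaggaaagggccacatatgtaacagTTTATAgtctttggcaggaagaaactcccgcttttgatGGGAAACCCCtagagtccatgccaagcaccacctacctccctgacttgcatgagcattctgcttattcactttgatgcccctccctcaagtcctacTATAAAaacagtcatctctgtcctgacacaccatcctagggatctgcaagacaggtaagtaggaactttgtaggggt
The motifs were the TATA box TATAAA, found in 13.6% of 32851 promoters of the same length, C/EBP TTGCNNAA in 10.8%, NF-kB (GGG and CC with any 5 bases between them) in 50.8%, STAT TTCNNNGAA in 8.3% and AP-1 TGANTCA in 7.81%. S100a8 held TATAAA at bases 221 to 226, and S100a9 held it at bases 251 to 256 together with the C/EBP match TTGCTTAA at bases 15 to 22. Lcn2 held the C/EBP match TTGCTCAA and the NF-kB match GGACTACCCC, whereas Saa3 held the C/EBP match TTATGCAA alone. Reg3g held TATAAA at bases 224 to 229, its reverse complement TTTATA at bases 90 to 95 and the NF-kB match GGGAAACCCC. No match overlapped another, and none of the 5 windows held the STAT or AP-1 letters. A match is a string of letters in the window and was not tested for binding.

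Of 8953 barcodes in the cDNA matrix, 8696 were also in the hashtag table, 7623 were assigned to 1 pool and 7118 were kept as cells. The pools held 1543 (WT day 3), 1037 (WT day 5), 2191 (Ccr2-/- day 3) and 2347 cells (Ccr2-/- day 5), with 68064673 to 162572556 reads per pool and a median of 18632 to 48232 reads per cell. Marker lists that contain none of the 6 genes gated 5385 cells into types and left 1733 ungated. Levels are given as CPM, the reads of a gene per 1000000 reads of all cells of a gate in a pool, with exact Poisson 95% intervals. These values are reads and not molecules, so intervals cover counting error only. Ccr2 itself was 1726 and 1481 CPM in the monocyte gate of the WT pools and 82.3 and 102 CPM in that of the Ccr2-/- pools, and in macrophages it was 540.4 and 625 CPM against 40.6 and 15.8 CPM.

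All 4 pools shared 1 cartridge, in which RNA released from broken cells reaches others. The level in T cells, NK cells or innate lymphoid cells, mast cells and basophils, summed and called unrelated cells, was therefore given beside each level as the free-RNA level. There were 120 and 42 such cells in WT lesions of days 3 and 5, and 276 and 221 in Ccr2-/- lesions of days 3 and 5. All lists of 4 values follow this order, the WT pools first and the earlier day first within a genotype.

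Calprotectin reads were concentrated in neutrophils. The neutrophil gate held 38, 4, 301 and 616 cells, with a median of 8210 to 10087 reads per cell, and its defining genes were present, among them Csf3r at 2484 CPM against 7.36 CPM in unrelated cells. S100a8 stood at 22553 (22054 to 23061), 18862 (17476 to 20328), 12809 (12690 to 12929) and 15299 CPM (15204 to 15393) in neutrophils. In unrelated cells it stood at 8.52, 8.54, 10.8 and 18.1 CPM, so every neutrophil pool lay far above every pool of unrelated cells. S100a9 stood at 38541, 28870, 21723 and 27106 CPM in neutrophils and at 9.94, 9.2, 8.15 and 27.6 CPM in unrelated cells. Both WT neutrophil pools were above both Ccr2-/- pools for either gene, but WT day 5 rests on 4 cells, 1 of which held 76.2% of its S100a9 reads, and no genotype test was made in this gate.

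Shares of cells with a read were taken after thinning cells to 5000 reads, and cells with fewer reads were left out. By this measure 100% of WT day 3 neutrophils, 90.1% of Ccr2-/- day 3 and 92.9% of Ccr2-/- day 5 neutrophils had a read of S100a8. Over all neutrophils of these pools, 36 of 38, 263 of 301 and 572 of 616 had at least 100 CPM of S100a8. In unrelated cells the thinned share was 4.31%, 0%, 4.78% and 5.14%, where 0 of 42 cells in WT day 5 has an exact binomial upper bound of 8.41%. In an edgeR fit over 17372 genes, which compared pool sums of a gate with those of unrelated cells, S100a8 was higher in neutrophils by 10.73 ± 0.75 (log2 ± SE, adjusted p = 5.02e-09) and S100a9 by 11.38 ± 0.98 (adjusted p = 3.3e-08). WT day 5 neutrophils, with fewer than 10 cells, did not enter this fit. The gate held 58.4%, 45.3%, 77.6% and 79.5% of all S100a8 reads of the pools, and a further 31.2%, 14.1%, 18.1% and 17.9% lay in ungated cells.

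The other members split the gate further. Of the 6 genes, 4 were called higher in neutrophils than in unrelated cells (edgeR, adjusted p under 0.05), against 13.4% of all genes tested. Lcn2, which neutrophils store in specific granules, was 642 (560.2 to 733), 467, 271 and 484 CPM in neutrophils against 1.42, 5.26, 2.38 and 6.35 CPM in unrelated cells, a difference of 7.12 ± 0.74 (adjusted p = 4.54e-07). Hp stood at 991 (888 to 1102), 605, 956 and 893 CPM against 7.45, 7.88, 11.8 and 5.24 CPM, a difference of 6.94 ± 0.74 (adjusted p = 6e-07). At 5000 reads, 50%, 75%, 61% and 60.4% of neutrophils had an Hp read, and 28.1%, 50%, 20.6% and 26.7% had an Lcn2 read. Saa3 (352, 165, 258 and 148 CPM) did not pass the edgeR test in neutrophils (1.22, adjusted p = 0.0721), but passed it without WT day 3 (0.0449) and in DESeq2 (0.0216). Neutrophils with at least 1000 CPM of Saa3 numbered 1 of 38 in WT day 3, 8 of 301 in Ccr2-/- day 3 and 12 of 616 in Ccr2-/- day 5. They held 81.8%, 71.7% and 50.6% of the Saa3 reads of the gate. Reg3g, at 5.81, 0, 13 and 2.59 CPM, was at the level of unrelated cells.

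**Figure D1:**
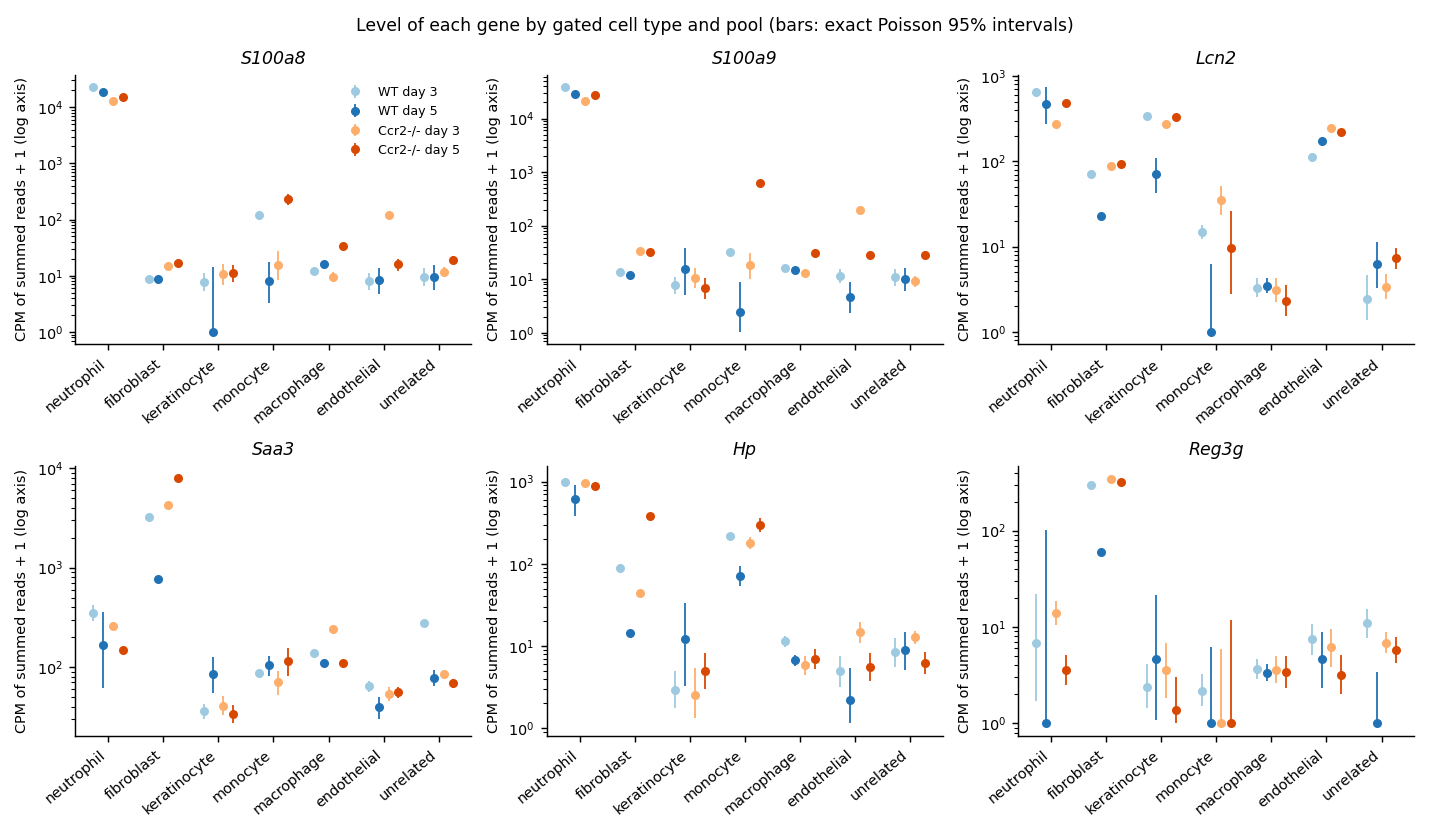
CPM of summed reads plus 1 on a log axis for each of the 6 genes, by gated cell type (x axis) and pool (colour), with exact Poisson 95% intervals as bars. S100a8 and S100a9 stand above 10000 CPM in neutrophils of all 4 pools, whereas Saa3 and Reg3g are highest in the fibroblast gate of all 4 pools.

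In fibroblasts and keratinocytes, calprotectin did not pass the test against unrelated cells. Fibroblasts held S100a8 at 7.82 (6.89 to 8.84), 7.69 (6.68 to 8.81), 14.2 (13.5 to 14.9) and 15.7 CPM (14.9 to 16.6), and S100a9 at 12.6, 11.2, 32.8 and 31.6 CPM. Neither was called (S100a8 0.38, adjusted p = 0.671, and S100a9 1.19, adjusted p = 0.224, in edgeR). The share of fibroblasts with an S100a8 read at 5000 reads was 3.68%, 3.57%, 3.91% and 5.52%, which overlaps that of unrelated cells. Keratinocytes, in which calprotectin is known as a stress-induced protein, held S100a8 at 6.78 (4.39 to 10), 0, 9.6 and 10.2 CPM over 23, 3, 19 and 19 cells, also without a called difference (-0.14, adjusted p = 0.896). Gates that were not tested against unrelated cells held higher levels in the Ccr2-/- pools. Pericytes or smooth muscle cells held S100a8 at 20.1, 8.94, 211 and 597 CPM over 38, 7, 34 and 30 cells, and eosinophils held S100a9 at 10.3, 23.9, 156 and 456 CPM over 20, 14, 57 and 70 cells.

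In the monocyte gate the 2 calprotectin genes passed the test on the reads of few cells. S100a8 stood at 118, 7.04, 14.6 and 227 CPM over 148, 17, 22 and 15 cells, and S100a9 at 31.9, 1.41, 17.3 and 629 CPM. In Ccr2-/- day 5, 1 monocyte held 97.4% of the S100a8 reads and 99.1% of the S100a9 reads, and without it each gene stood at 6 CPM. In WT day 3, 2 of 148 monocytes held at least 50% of the S100a8 reads. Both genes were called higher in monocytes than in unrelated cells (S100a8 2.67 ± 0.56, adjusted p = 0.00253, and S100a9 2.55 ± 0.72, adjusted p = 0.0216, in edgeR). Without WT day 3 the adjusted p was 0.0744 for S100a8 and 0.0861 for S100a9, and S100a9 also missed the threshold without Ccr2-/- day 3 (0.054) and without Ccr2-/- day 5 (0.244).

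The number of S100a8 reads per S100a9 read differed between these cells. It was 0.585 in WT day 3 neutrophils, 0.59 and 0.564 in those of the Ccr2-/- pools, and 0.622, 0.686, 0.432 and 0.497 in the fibroblast gate of the 4 pools. In WT day 3 monocytes it was 3.68, from 821 S100a8 and 223 S100a9 reads, and in unrelated cells it was 0.857, 0.929, 1.32 and 0.655. The monocytes of WT day 3 thus carried S100a8 reads in excess of the ratio seen in neutrophils, which was not tested because a few cells held them.

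Lcn2 was the one member called in keratinocytes in the upward direction. The keratinocyte gate, small in every pool, held Krt5 at 3653 CPM against 5.05 CPM in unrelated cells. Lcn2 stood there at 342 (324 to 362), 69.5 (41.9 to 109), 273 (250.3 to 297) and 329 CPM (308 to 351), higher than in unrelated cells by 6.65 ± 0.73 (edgeR, adjusted p = 1.08e-06). Of the 6 genes, 1 was called higher in keratinocytes, against 12.8% of all genes, and 1 lower, against 15.4%. The lower one was Saa3, at 35, 84.2, 39.9 and 32.6 CPM (-1.51 ± 0.54, adjusted p = 0.0421), a call that was lost without WT day 3 (adjusted p = 0.339), without Ccr2-/- day 3 (0.0985) or without Ccr2-/- day 5 (0.0553), without the pool as a block (0.0525) and in DESeq2 (-1.20, 0.0909). In 3 of the 4 pools of unrelated cells Saa3 was 67.4 to 83.7 CPM, and in WT day 3 it was 274 CPM, of which 1 cell held 79.4%. Reg3g, known as an epithelial gene, stood at 1.36, 3.66, 2.53 and 0.363 CPM in keratinocytes, from 5, 1, 5 and 1 reads.

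Lcn2 was also present in endothelial cells, which line blood and lymph vessels. It stood there at 112, 171 (152 to 193), 246 (228 to 265) and 219.6 CPM (206 to 234), and 14.7%, 24.3%, 27.9% and 26.1% of these cells had a read at 5000 reads, against 0%, 4.76%, 1.1% and 1.4% of unrelated cells. In macrophages Lcn2 was at most 2.48 CPM in any pool. Among neutrophils, keratinocytes, endothelial cells and fibroblasts, Lcn2 levels fell in that order in WT day 3 and Ccr2-/- day 5. Each neighbour there had separate counting intervals, whereas in Ccr2-/- day 3 the intervals of neutrophils (254 to 289), keratinocytes and endothelial cells overlapped. Perichondrial cells were not placed in this order, and they held 1.29%, 5.74%, 4.7% and 2.75% of the Lcn2 reads of the pools.

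**Figure D2:**
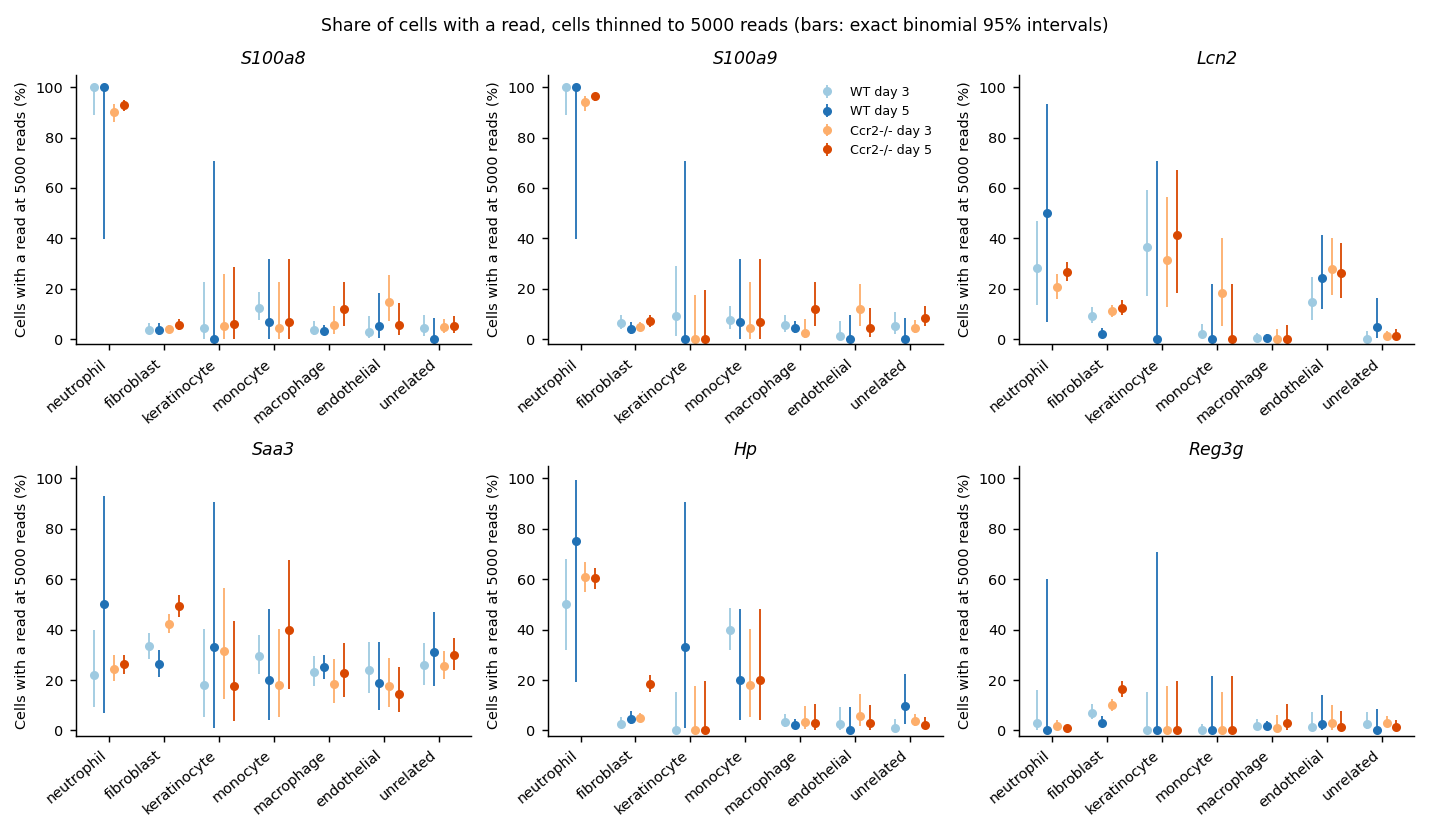
Share of cells with at least 1 read of each gene after thinning to 5000 reads (y axis, percent), by gated cell type and pool. Bars are exact binomial 95% intervals, and cells with fewer than 5000 reads were left out. Between 90.1% and 100% of neutrophils had an S100a8 read, whereas the Saa3 share in fibroblasts was 26.4% to 49.3% beside 25.7% to 31% in unrelated cells.

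Saa3 and Reg3g were genes of the fibroblast gate in all 4 pools. This gate held 328, 285, 704 and 536 cells and its marker genes were high, among them Col1a1 at 10921 CPM against 210.2 CPM in unrelated cells. Saa3 stood at 3219 (3200 to 3239), 763 (753 to 774), 4272 (4259 to 4285) and 7921 CPM (7902 to 7940) in fibroblasts. It stood at 274, 76.9, 83.7 and 67.4 CPM in unrelated cells, below every fibroblast pool. Reg3g stood at 294 (288 to 300.1), 58.9 (56 to 61.8), 346 (343 to 350) and 319.8 CPM (316 to 324) in fibroblasts and at 9.94, 0, 5.89 and 4.76 CPM in unrelated cells. The fibroblast gate held 87.9%, 77.8%, 88.3% and 85.9% of the Saa3 reads and 85.3%, 93.8%, 95.2% and 88.2% of the Reg3g reads of the pools.

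Against unrelated cells, 4 of the 6 genes were called higher in fibroblasts, with 15.3% of all genes called higher in the same fit. These were Reg3g (5.98 ± 0.66, adjusted p = 6.81e-07), Saa3 (5.34 ± 0.56, adjusted p = 3.97e-07), Lcn2 (4.44 ± 0.66, adjusted p = 2.42e-05) and Hp (3.78 ± 0.66, adjusted p = 0.000161), all in edgeR. Lcn2 stood at 71, 22.1, 86.5 and 92.5 CPM in fibroblasts, and Hp at 88.4, 13.4, 42.9 and 379.7 CPM. WT day 5 fibroblasts were the lowest of the 4 pools for all 4 of these genes.

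Within the fibroblast gate a minority of cells carried most of these reads. Cells with at least 1000 CPM of Saa3 numbered 39 of 328 (11.9%), 23 of 285 (8.07%), 152 of 704 (21.6%) and 167 of 536 (31.2%), and they held 98%, 92%, 98.4% and 99.1% of the Saa3 reads of the gate. Among unrelated cells 1, 2, 2 and 2 reached this level. The median fibroblast stood at 45.6, 42.3, 49.3 and 66.1 CPM, above the median unrelated cell of its pool, at 21.3, 40, 44.2 and 36.3 CPM. At 5000 reads the share with at least 3 reads was 14.1%, 10.4%, 23.9% and 34.1% of fibroblasts beside 3.45%, 4.76%, 4.04% and 3.74% of unrelated cells. Depth differed between the gates, with a median of 71579 to 129752 reads in fibroblasts, which is why the thinned shares are given.

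Reg3g was rarer still. Cells with at least 100 CPM of Reg3g were 27 (8.23%), 8 (2.81%), 77 (10.9%) and 95 (17.7%) of the fibroblasts, and 11, 3, 37 and 36 of them reached 1000 CPM. In WT day 5 a single cell held 44.1% of the Reg3g reads, and without it the level was 33.1 CPM. Saa3 in the cells with at least 100 CPM of Reg3g was 8982, 1844, 5891 and 10881 CPM, and in the other fibroblasts it was 2222, 705, 4001 and 7098 CPM, lower in all 4 pools. Reg1, which encodes a secreted lectin of the same family, was 1630 CPM in the first and 16.6 CPM in the second class in WT day 3, 369 and 14.7 CPM in WT day 5, 1609 and 42.5 CPM in Ccr2-/- day 3, and 935 and 61.5 CPM in Ccr2-/- day 5. The classes were cut on a measured level in the same cells, so these values are a description with no test.

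Hp was spread unevenly over the pools. Fibroblasts with at least 1000 CPM of Hp numbered 4, 0, 8 and 46, and at 5000 reads 2.76%, 4.64%, 5.07% and 18.5% had an Hp read, beside 0.862%, 9.52%, 3.68% and 2.34% of unrelated cells. The 3 lower pools overlapped unrelated cells and the Ccr2-/- day 5 pool did not (15.2% to 22.1% against 0.763% to 5.37%). In that pool 83.5% of the fibroblasts with an Hp read also had a Saa3 read, against 41.6% of those without an Hp read.

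A grouping of all cells by expression split the fibroblast gate mainly into a deep and a shallower cluster. Cluster 1, with 79, 32, 361 and 277 of the gated cells and a median of 182069 to 200464 reads, held Saa3 at 6374, 1537, 5886 and 10118 CPM and Reg3g at 606, 214, 449.8 and 404 CPM. Cluster 2, with 181, 200, 242 and 163 cells, held Saa3 at 259, 566, 408 and 1711 CPM and Reg3g at 12, 8.75, 109.8 and 104 CPM. Both genes were higher in cluster 1 in all 4 pools. The clusters were made from the same expression values, and cluster 1 was deeper, so this is a description.

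**Figure D3:**
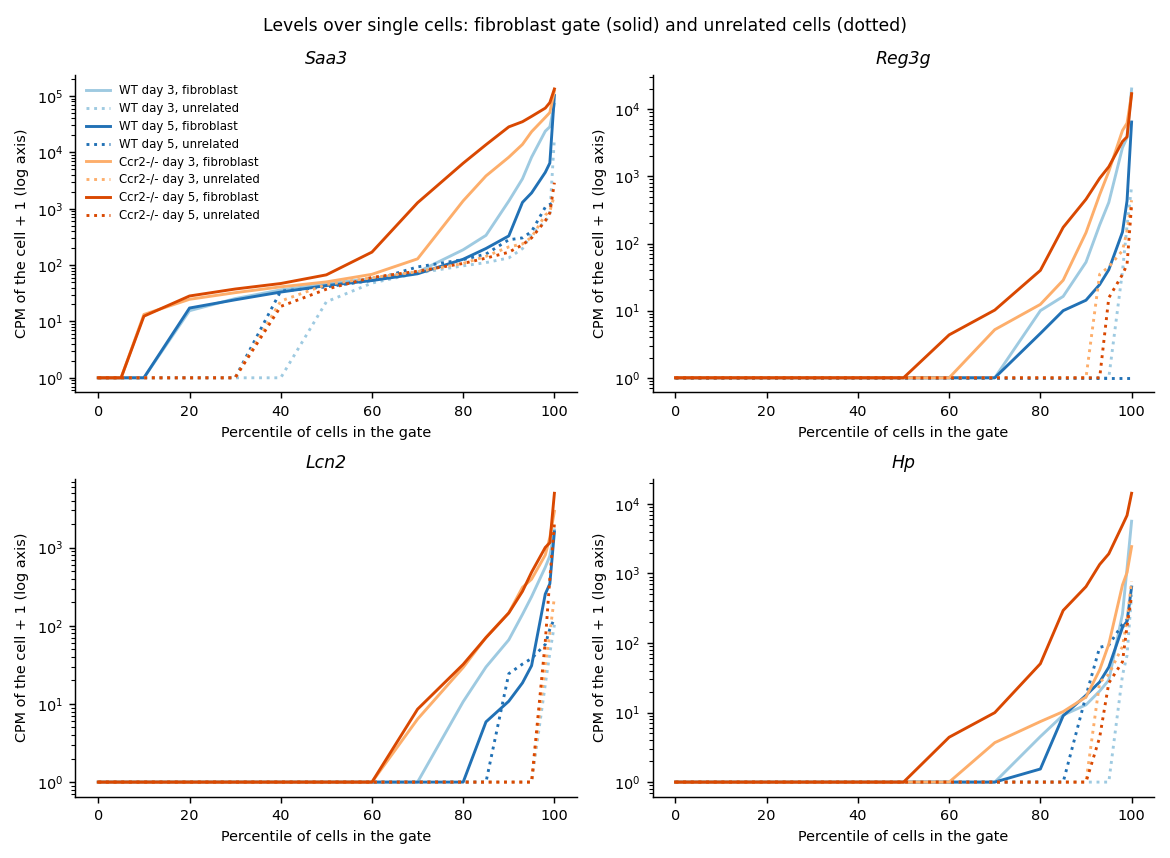
Level of Saa3, Reg3g, Lcn2 and Hp in single cells (CPM of the cell plus 1, log axis) against the percentile of cells, for the fibroblast gate (solid) and unrelated cells (dotted) in each pool. The median fibroblast lies above the median unrelated cell for Saa3 in all 4 pools, and at the upper end 8.07% to 31.2% of fibroblasts reached 1000 CPM.

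Monocytes carried Hp. It stood at 216 (205 to 227), 70.4 (52.2 to 92.8), 180.5 (151 to 213) and 297 CPM (242 to 360.4) in the monocyte gate, above the 5.24 to 11.8 CPM of unrelated cells in all 4 pools, by 4.36 ± 0.65 (edgeR, adjusted p = 9.45e-05). In WT day 3, the pool with 148 monocytes, 40% had an Hp read at 5000 reads, against 0.862% of unrelated cells. Monocytes with at least 1000 CPM of Hp numbered 1 of 17 in WT day 5, 3 of 22 in Ccr2-/- day 3 and 2 of 15 in Ccr2-/- day 5. They held 72%, 71.3% and 90.2% of the Hp reads of the gate, against 29.5% in 11 such cells of WT day 3. Of the 6 genes, 3 (Hp, S100a8 and S100a9) were called higher in monocytes, against 6.19% of all genes. Reg3g alone was called lower (-2.75 ± 0.88, adjusted p = 0.0424), against 7.11% of all genes, from 8 reads in WT day 3 and 0 in the other pools, and the call was lost on leaving out WT day 3 (adjusted p = 0.143), Ccr2-/- day 3 (0.152) or Ccr2-/- day 5 (0.123). Lcn2, at 13.9, 0, 34.5 and 8.73 CPM, was not called (1.95, adjusted p = 0.0604), though it was in DESeq2 (0.019) and without WT day 5 (0.00792). Macrophages, which descend from such monocytes in inflamed skin, held Hp at 4.79 to 10.5 CPM, at the level of unrelated cells. None of the 6 genes was called higher in macrophages by edgeR or by DESeq2, and none was below an unadjusted p of 0.05 in either, against 9.16% of all genes called higher.

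**Figure D4:**
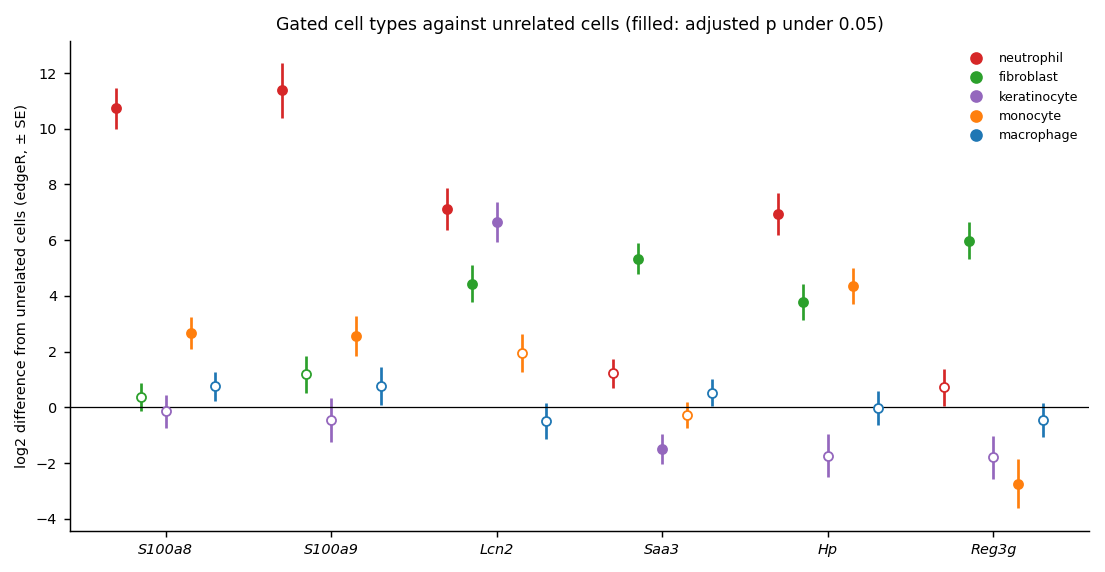
edgeR log2 difference of each gene between a gated cell type and unrelated cells (points), with standard errors as bars and filled points where the adjusted p was under 0.05. S100a8 and S100a9 lie above 10 in neutrophils, and Reg3g and Saa3 at 5.98 and 5.34 in fibroblasts.

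The comparison of genotypes asked how the members differ between lesions with and without CCR2, and the fibroblast gate had enough cells in every pool to ask it. In fibroblasts 5 of the 6 genes stood higher in Ccr2-/- than in WT on both days. The ratio of Ccr2-/- to WT on days 3 and 5 was 1.33 and 10.4 for Saa3, 1.18 and 5.43 for Reg3g, 1.22 and 4.18 for Lcn2, 1.81 and 2.04 for S100a8, and 2.61 and 2.82 for S100a9. For Hp it was 0.485 on day 3 and 28.4 on day 5, where 4 of the 328 WT day 3 fibroblasts held 85.5% of the Hp reads of that pool's gate. The make-up of the gate also differed, as cluster 1 held 79 of 328, 32 of 285, 361 of 704 and 277 of 536 fibroblasts. Within cluster 1 on day 3, Saa3 was 6374 CPM in WT and 5886 CPM in Ccr2-/-. Reg3g was 606 and 449.8 CPM there, and Lcn2 109.9 and 106 CPM. S100a8 and S100a9 were higher in Ccr2-/- there, as were all 5 genes in cluster 1 on day 5 and cluster 2 on both days. How far this make-up set the ratios was not tested. A few cells held a large part of the calprotectin reads of Ccr2-/- fibroblasts. Fibroblasts with at least 1000 CPM of S100a9 numbered 1, 0, 3 and 7, and they held 2.42%, 0%, 51.7% and 55.3% of its reads. Those with at least 100 CPM of S100a8 numbered 2, 0, 6 and 14, and they held 13.2%, 0%, 53.2% and 55.8%. The 90th percentile of S100a9 over fibroblasts was 32.3, 34.1, 27.2 and 28 CPM. With 1 pool per genotype and day, the days stood in for replicates, and the exact two-sided permutation p was 0.33 for each of the 5 genes, the smallest this design allows, and 0.67 for Hp.

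In edgeR with day as a term, none of the 6 genes was called between genotypes in fibroblasts, and 3 of 19716 genes (0.0152%) were. Without adjustment, 5 of the 6 were below a p of 0.05, as were 3847 of all genes, and DESeq2 called S100a8 (adjusted p = 0.0175) and S100a9 (adjusted p = 8.5e-08), with 1409 genes called in all. The edgeR differences were 1.45 ± 0.16 for S100a9 (adjusted p = 0.0671), 0.95 ± 0.20 for S100a8 (0.104), 1.17 ± 0.41 for Lcn2 (0.218), 1.90 ± 0.72 for Saa3 (0.241), 1.34 ± 0.51 for Reg3g (0.247) and 1.82 ± 1.73 for Hp (0.638). The median of all genes in this fit was 0. The direction of 2 genes on day 3 depended on the setting: S100a8 had a ratio of 0.667 with the mean over cells in place of summed reads, and Reg3g a ratio of 0.953 with a stricter gate. With Leiden clusters in place of gates, the day 5 ratio was 20.2 for Lcn2 and 51.4 for Hp. The 8 ungated Ccr2-/- day 5 cells with high Fabp4 and Cfd, described below, lay in clusters 1 and 15, which also held fibroblast-gated cells. They held 62.2% of the Lcn2 and 51.1% of the Hp reads of that pool, and their part in these ratios was not tested. Without the highest cell of each pool the day 5 ratio was 8.94 for Reg3g.

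The number of gated neutrophils and the calprotectin values of fibroblasts were both higher in the Ccr2-/- pools than in the WT pools. There were 38 and 4 gated neutrophils in the WT pools and 301 and 616 in the Ccr2-/- pools. S100a9 in unrelated cells was 27.6 CPM in Ccr2-/- day 5 against 8.15 to 9.94 CPM in the other pools. It was lowest in Ccr2-/- day 3, where fibroblasts were highest (32.8 CPM). In Ccr2-/- day 5, 2 of the 221 unrelated cells had at least 1000 CPM of S100a9 and held 55.7% of its reads in these cells. What was left after subtraction depended on its scale, since fibroblasts were deeper than unrelated cells. With the reads per unrelated cell taken from every fibroblast, S100a9 was 10.2, 7.69, 31.2 and 26.6 CPM and S100a8 was 5.82, 4.43, 12.1 and 12.4 CPM. With the CPM of unrelated cells taken from that of the gate, S100a9 was 2.63, 2.01, 24.6 and 4 CPM, and S100a8 was 3.39 CPM in Ccr2-/- day 3 and 0 in the other pools. The part of neutrophil RNA or of mixed cells in the remaining difference was not tested.

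For Saa3, Reg3g and Lcn2 the WT day 5 pool set the size of the day 5 ratio. From day 3 to day 5 Saa3 in fibroblasts went from 3219 to 763 CPM in WT and from 4272 to 7921 CPM in Ccr2-/- lesions, and Reg3g from 294 to 58.9 and from 346 to 319.8 CPM. The share of fibroblasts with at least 1000 CPM of Saa3 went the same way, from 11.9% to 8.07% in WT and from 21.6% to 31.2% in Ccr2-/-. Without the highest cell of each pool, the Saa3 ratio was 1.5 on day 3 and 15.3 on day 5, so no single cell carried the difference. These changes between days were not tested, since each is 1 pool against 1 pool.

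**Figure D5:**
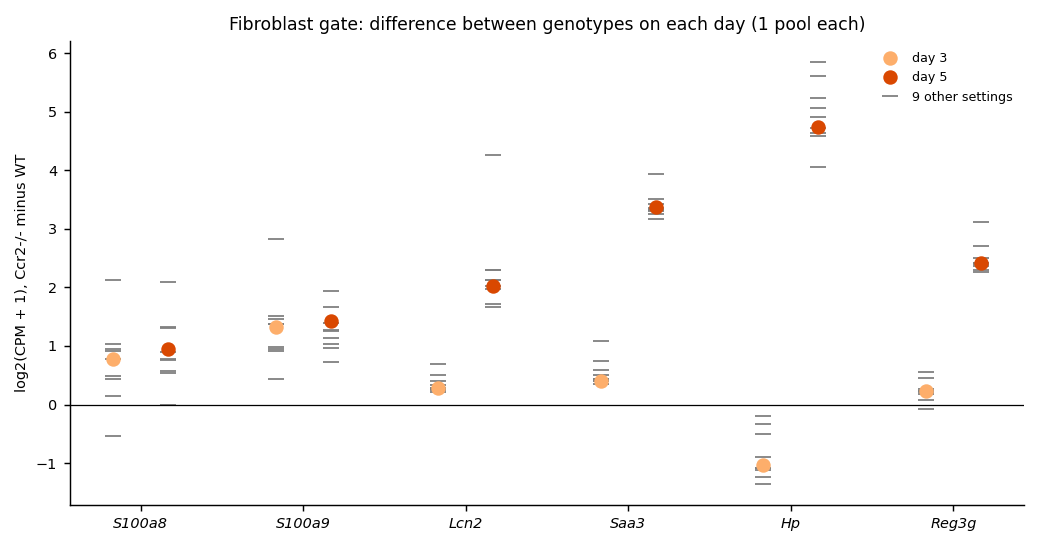
Difference of log2(CPM + 1) between Ccr2-/- and WT fibroblasts on day 3 and day 5 for each gene (large points, 1 pool against 1 pool), with grey lines for 9 other settings. The large points of day 5 lie above 0 for all 6 genes, and Hp lies below 0 on day 3.

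In the other gates with at least 20 cells in every pool, a member was called once. In endothelial cells 1 of the 6 genes was called, against 0.121% of 12392 genes: S100a9 at 10.7, 3.64, 199 and 26.9 CPM (3.70 ± 0.55, adjusted p = 0.00382 in edgeR). In Ccr2-/- day 3, 1 cell held 48.4% of the S100a9 reads of the 70 endothelial cells, without which the level was 104 CPM, and the adjusted p was 2.09e-07 to 0.134 over the other settings, the last with a hashtag ratio of 10. The reads of S100a8 per S100a9 in that pool were 0.612, near the value in neutrophils, and the part of neutrophil RNA was not tested. In macrophages 0 of 6 genes were called by edgeR or DESeq2, none below an unadjusted p of 0.05, with 0.427% of 14767 genes called. In dendritic cells, perichondrial cells and NK or innate lymphoid cells, edgeR called 0% of 12165, 12886 and 11025 genes, although 859, 812 and 540 were below an unadjusted p of 0.05 and DESeq2 called 88, 74 and 12. Lcn2 in perichondrial cells missed the threshold in edgeR (2.07 ± 0.34, adjusted p = 0.369) and passed it in DESeq2 (adjusted p = 0.00278).

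Not all of the members' reads lay in gated types. In Ccr2-/- day 5, 66.1% of the Lcn2 reads and 54.3% of the Hp reads lay in ungated cells, against 8.44% to 10.6% and 11% to 26.4% in the other pools. Of the 582 ungated cells of that pool, 8 cells with at least 1000 CPM of both Fabp4, which encodes a fatty acid binding protein, and Cfd, which encodes complement factor D, held 62.2% of the Lcn2 reads of the pool, 51.1% of the Hp reads and 9.75% of the Saa3 reads. These cells were looked up after the values were seen, and no other pool held such a cell. They stood at 17347 CPM of Lcn2, 28738 CPM of Hp and 51028 CPM of Saa3, against 66.8, 112 and 1264 CPM in the other ungated cells of the pool. Reg3g, at 2.02 CPM, and S100a9, at 4.04 CPM, were not raised in them. Cfd was at most 0.487 CPM in the fibroblast gate of any pool.

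The genes around the members were counted by lists, each against unrelated cells in the same edgeR fit. For comparison with these counts, 13.4% of all genes rose in neutrophils, 15.3% in fibroblasts and 12.8% in keratinocytes. In monocytes 6.19% rose, and in macrophages 9.16%. Of the 17372 genes, 3599 fell in neutrophils, 1760 in fibroblasts, 2680 in keratinocytes, 1235 in monocytes and 1298 in macrophages. The ranges of the named genes cover the pools with at least 10 cells of a gate. For the 4 neutrophils and 3 keratinocytes of WT day 5, the values that lay outside are given beside them. Of the granule and antimicrobial list of 14 genes, 11 were tested, and in neutrophils 9 rose and none fell, with a median log2 difference of 5.68 against -0.24 for all genes. Mmp8, a neutrophil collagenase, was 177 to 273 CPM in neutrophils (1375 CPM in WT day 5) and 32 to 82.3 CPM in monocytes, with no read in unrelated cells. Cybb, the catalytic subunit of the phagocyte NADPH oxidase, was higher in monocytes (910.3 to 1787 CPM) and neutrophils (2.91 to 46.5 CPM, and 192 CPM in WT day 5). Macrophages held it at 143 to 507 CPM and unrelated cells at 0 to 3.26 CPM. The 2.91 CPM of WT day 3 neutrophils came from 1 read and lay within the range of unrelated cells. Camp, the cathelicidin, was at most 8.7 CPM in any of these gates. Pglyrp1, a peptidoglycan binding protein, was 108 to 137 CPM in neutrophils but 20.4 to 95.5 CPM in unrelated cells, and did not pass the test there. In fibroblasts 2 of this list rose and 2 fell (median 0.46 against 0.06), and in monocytes 7 rose and 1 fell (2.76 against -0.26).

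Most of the acute-phase genes tested rose in fibroblasts. Of the 15 genes of this list 12 were tested, of which 9 rose in fibroblasts and none fell, with a median of 5.73 against 0.06 for all genes, whereas 3 rose and 1 fell in neutrophils and 4 rose in keratinocytes. Serpina3n, a serine protease inhibitor, was 379 to 1120 CPM in fibroblasts against 9.78 to 17.8 CPM in unrelated cells (6.29, adjusted p = 6.7e-08 in edgeR). Saa1, a further serum amyloid A, was 9.95 to 53.3 CPM in fibroblasts and 31.3 to 1070 CPM in keratinocytes (0 in WT day 5), from 4 reads in unrelated cells. Saa2 stood at 1.55 to 4.63 CPM in fibroblasts, and Orm1, an alpha-1-acid glycoprotein, at 6.57 to 88.5 CPM in keratinocytes (0 in WT day 5). Reads of Saa1, Saa2 and Saa3 may be shared, since the coding sequences are close relatives.

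Of the epithelial list of 14 genes 5 were tested, and 3 rose and 1 fell in keratinocytes (median 9.90 against -0.25). The stress keratins Krt6a and Krt17 were 18.5 to 48 (0 in WT day 5) and 12.1 to 264 CPM there, and the beta-defensin Defb6 was 60.6 to 196 CPM (1277 CPM in WT day 5). S100a7a fell (-2.07, adjusted p = 0.03), at 0.505 to 1.36 CPM (0 in WT day 5) against 2.38 to 8.16 CPM in unrelated cells. In fibroblasts 1 rose and 1 fell (0.74 against 0.06), and in neutrophils 2 rose (1.20 against -0.24).

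Receptors and binding partners of the proteins stood mostly on myeloid cells. Of 10 such genes 9 were tested, and 4 rose in neutrophils, 6 in monocytes, 6 in macrophages and 2 in fibroblasts, with none lower in these gates. The median log2 difference of the list was 1.44 against -0.24 for all genes in neutrophils, 3.10 against -0.26 in monocytes, 4.19 against 0.01 in macrophages and 0.16 against 0.06 in fibroblasts. Fpr2, a formyl peptide receptor that also binds serum amyloid A, was 738 to 1258 CPM in neutrophils (220 CPM in WT day 5) against at most 0.752 CPM in unrelated cells (11.15, adjusted p = 9.46e-09 in edgeR). Tlr2, a receptor for bacterial lipoproteins, was 523 to 642 CPM in neutrophils (769.9 CPM in WT day 5), 22 to 109.8 CPM in macrophages and 4.31 to 11.3 CPM in fibroblasts. Cd163, the scavenger receptor for haemoglobin bound to haptoglobin, was 1443 to 2323 CPM in macrophages against 5.32 to 18.4 CPM in unrelated cells (8.01, adjusted p = 5.2e-05), and 5.82 to 767 CPM in monocytes. Cd36, a scavenger receptor, was 142 to 275 CPM in macrophages and 261 to 469.8 CPM in keratinocytes.

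Of 16 inducers, their receptors and transcription factors, 14 were tested, and 9 rose and 2 fell in neutrophils, 5 rose and 5 fell in fibroblasts, and 3 rose and 8 fell in keratinocytes. The median of the list was 2.27 against -0.24 for all genes in neutrophils, -0.20 against 0.06 in fibroblasts and -1.57 against -0.25 in keratinocytes. Il1b was 18951 to 24634 CPM and Il1a 169 to 619 CPM in neutrophils (Il1a 0 in WT day 5), against 9.2 to 226 and at most 2.76 CPM in unrelated cells. Il17a had no read in neutrophils and 205 reads in unrelated cells, which include T cells and innate lymphoid cells. Osm, the cytokine oncostatin M, was 552 to 1103 CPM in neutrophils (1402 CPM in WT day 5) and 217 to 636 CPM in unrelated cells, with 2.49 to 4.59 CPM in fibroblasts (-6.64, adjusted p = 3.73e-07). Between genotypes, 2 genes of all 5 lists were called in any gate, both in macrophages: Wfdc17 was higher (1.23, adjusted p = 0.0412) and Cebpb lower (-1.16, adjusted p = 0.0495) in Ccr2-/- mice.

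The genes most like each member were found by Pearson's r of log2(CPM + 1) over 43 pool-by-gate sums from 14 gates, among 10507 genes. The sums share 4 pools and 1 library, so r is a description. S100a8 and S100a9 were each other's nearest gene (r = 0.963), followed by Csta3, a stefin (0.906 and 0.91), and by Mrgpra2b for S100a8 (0.903) and Stfa2l1 for S100a9 (0.902). Saa3 was nearest to Reg1 (0.816), the neutrophil-attracting chemokine Cxcl5 (0.81) and Sfrp4 (0.791), and Reg3g to Cpxm1 (0.783), Efemp1 (0.763) and Has1 (0.759). Hp was nearest to Fpr1 and Tnfrsf23 (0.715 each) and Mmp8 (0.712), and Lcn2 to Nqo1 (0.729), Id1 (0.712) and Ppp1r2 (0.711), with lower r than the calprotectin pair.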

How the data were processed

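Reads were counted for 1 cDNA library and 1 hashtag library, and the deposited tables hold whole-number counts of reads per gene or hashtag and cell barcode. Per the labels and the study's methods, the authors trimmed reads with cutadapt and aligned them to GRCm38.p6 transcripts with Bowtie2; a correction for diffused RNA is described, and whether the deposited counts carry it could not be seen. Of the hashtag columns, 9 were not used. A barcode with at least 10 hashtag reads went to a pool where its first hashtag was at least 3 times the second after scaling, which also removed 570 barcodes with several hashtags, and cells with over 20% mitochondrial reads or under 200 genes were left out. No other doublet caller was run. Cell types were gated by marker scores, each divided by the median score of the cells led by that type. The highest score of a cell had to be at least 0.5. Scores of other lineages could be at most 0.5 times it, and scores of other types of the same lineage at most 0.8 times it.

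Counts were summed by gate and pool, and gates against unrelated cells or genotypes were tested with edgeR 4.0.16 (quasi-likelihood, TMM, filterByExpr, Benjamini-Hochberg adjustment over all genes tested, threshold 0.05), with the pool or the day as a term. Pool sums of fewer than 10 cells did not enter the fit of gates, and genotypes needed 20 cells in every pool. The SE of an edgeR difference was taken as its absolute value divided by the square root of the F statistic of its test. The pools are not biological replicates, so p-values measure the spread between 4 pools. Alternatives were DESeq2 1.42.0, library sizes alone, no filter on low counts, a hashtag ratio of 10, other gates, other means, subtraction of the level in unrelated cells by reads per cell or by CPM, a pseudocount of 10 CPM and leaving out each pool. The members and lists were chosen with earlier results of these data known. Named genes are the 6 members, up to 4 genes of each list with the greatest absolute difference among those called, and the 3 genes most like each member. Promoters come from RefSeq tables, where 5 of the 6 members matched.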

Additional observations from a re-analysis of the deposited data

Results flagged for a closer look

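By summed reads, Hp in the fibroblast gate differed in opposite directions on the 2 days, with a ratio of Ccr2-/- to WT of 0.485 on day 3 and 28.4 on day 5. The difference between the days was not tested, since each ratio sets 1 pool against 1 pool. Without the highest cell of each pool the ratios were 0.703 and 42.3. In WT day 3, 4 of 328 fibroblasts held 85.5% of the Hp reads of the gate. The share of fibroblasts with at least 100 CPM of Hp was higher in Ccr2-/- on both days. It was 4.97% against 2.44% in WT on day 3, and 18.1% against 3.51% on day 5.

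Signal lay outside the gates used for the comparisons in Ccr2-/- day 5, where 66.1% of the Lcn2 reads and 54.3% of the Hp reads were in ungated cells, most of them in the 8 cells with high Fabp4 and Cfd.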

How the results depend on the processing

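The fibroblast differences between genotypes kept their sign averaged over days under all 9 alternatives for each of the 6 genes (54 of 54 values), with means of 0.37 to 1.18 for S100a8, 0.73 to 1.78 for S100a9, 0.96 to 2.3 for Lcn2, 1.83 to 2.26 for Saa3, 1.58 to 2.37 for Hp and 1.12 to 1.79 for Reg3g. Leaving out the highest cell of each pool and subtracting the CPM of unrelated cells were chosen after seeing the data. The last left a day 5 difference of 0 for S100a8.

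Counts of genes called between genotypes moved with the tool. In fibroblasts, against 3, library sizes alone gave 7, no filter 8, DESeq2 1409 and a hashtag ratio of 10 gave 15. In macrophages, against 63, no filter gave 1058, DESeq2 624 and the hashtag ratio 103. In endothelial cells, against 15, library sizes gave 37, no filter 43 and DESeq2 28. Against 0 elsewhere, no filter and DESeq2 gave 174 and 88 in dendritic cells, 144 and 74 in perichondrial cells, and 41 and 12 in NK or innate lymphoid cells, and library sizes gave 2 in each of the perichondrial and NK gates.

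Of 240 alternative values of the members against unrelated cells, 204 kept direction and side of the threshold, 13 lost a call, 14 gained one and 9 changed sign, none of the last called in the first place. Sign changes came with DESeq2 for S100a8 in keratinocytes (0.18), with no filter for Hp in macrophages (0.01), and on leaving out 1 pool for S100a8 (-0.28 to 0.04) and S100a9 in keratinocytes (-0.91 to 0.04), Reg3g in neutrophils (-0.18 to 1.22), Saa3 in monocytes (-0.65 to 0.30), and Lcn2 (-0.71 to 0.09), Hp (-0.29 to 0.42) and Reg3g in macrophages (-1.18 to 0.06). Leaving out 1 pool at a time gave 3354 to 5224 calls in neutrophils (5932 with all pools), 3019 to 4496 in keratinocytes (4902), 1329 to 1921 in monocytes (2310) and 1866 to 2225 in macrophages (2890), where fewer sums entered, and DESeq2 gave 3643 in monocytes. Without the pool as a replicate block the calls were 6342, 4610, 5525, 2677 and 3191 in neutrophils, fibroblasts, keratinocytes, monocytes and macrophages. With library sizes alone the median of all genes shifted from -0.24 to -0.75 in neutrophils, 0.06 to -0.29 in fibroblasts, -0.25 to -0.65 in keratinocytes and 0.01 to -0.20 in macrophages, and the share of calls that were higher went from 39.3% to 25.6%, 60.2% to 46.8%, 45.3% to 30.4% and 55.1% to 44.9%. DESeq2 gave 56.9% in keratinocytes. Calls gained beyond those named with the results were Hp (-2.34, adjusted p = 0.033 without Ccr2-/- day 5, -2.18, 0.0388 with library sizes alone and -1.83, 0.043 with no filter) and Reg3g in keratinocytes (-1.98, 0.0317 without WT day 5 and -2.19, 0.0294 with library sizes alone), and with no filter S100a9 in fibroblasts (1.35, 0.0485) and, between genotypes, S100a8 in endothelial cells (2.70, 0.0409), Lcn2 (2.14, 5.4e-05) and Saa3 in perichondrial cells (2.21, 1.03e-06, against 2.15, 0.824 with the filter, while a hashtag ratio of 10 gave -0.10). No filter and no block also gained calls for Lcn2 in monocytes (adjusted p = 0.019 and 0.0346) and Saa3 in neutrophils (0.0259 and 0.0442). Without the block Reg3g in monocytes lost its call (-2.63, 0.0627). The cause of these shifts was not tested.

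The main limits are 1 pool per genotype and day, reads in place of molecules, 4 neutrophils and 3 keratinocytes in WT day 5, and free RNA shared by all pools.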
